A study of Mus musculus with 12 samples.

Results

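The EBF transcription factors of the mouse, Ebf1, Ebf2, Ebf3 and Ebf4, were examined in bulk RNA-seq of primary oligodendrocyte precursor cells (OPCs). The members were taken by gene symbol, and these 4 genes stand among 55536 annotated genes. All 4 passed the filter on low counts, Ebf2 through the libraries in which it was high. The OPCs came from brains of P4 to P6 pups, and the labels name Sox10GFP+ OPCs, while the protocol gives either sorting of Sox10GFP+ cells or magnetic selection with CD140a beads. Brains of several pups were pooled for each experiment, and the replicates came from different litters. All cells were grown with PDGFaa and bFGF, and all labels carry the mouse model EAE. The 4 groups of 3 libraries were no treatment (Ctr), the EZH2 inhibitor EPZ011989 (EZH2i), IFN-γ, and both agents (IFN-γ+EZH2i). Cells received 1.5 μM EZH2i over 4 days with renewal at 48 h intervals. IFN-γ, at 100 ng/ml, followed for the last 6 h, together with fresh EZH2i in the last group.

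EBF proteins (early B cell factors) bind DNA as dimers through a zinc-containing domain at a palindromic site, and a helix-loop-helix region serves in dimerization. EBF1 is required for B cell specification and is also used in stromal and neuronal lineages, EBF2 is known from brown adipocytes and from neurons, and EBF3 is known from neuronal development. EBF4 is the least studied member. EZH2 is the catalytic subunit of PRC2, which methylates histone H3 at lysine 27 and keeps many developmental transcription factor genes silent.

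The members lie on 4 chromosomes of GRCm38. Ebf1 spans chr11:44617317-45008091 on the plus strand, with 7 annotated transcript models. Ebf2 spans chr14:67233292-67430918 on the plus strand, with 4 models. Ebf3 is at chr7:137193673-137314445 on the minus strand, with 8 models, and Ebf4 is at chr2:130295169-130370481 on the plus strand, with 6. No word of 31 bases was shared between the transcripts of different members, so that reads of this length separate them. Words shared with other genes made up 0.552% of those of Ebf1, 0.182% of those of Ebf3, 0.0578% of those of Ebf2 and 0% of those of Ebf4.

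RefSeq start windows of GRCm38.p6 were matched for 3 of the 4 members. The 250 bases before the start of Ebf3, the member with the largest fitted EZH2i change, and of Ebf4, which did not pass the test, are shown 5′ to 3′ with each CpG in capitals. The first lies at chr7:137314446-137314695 on the minus strand and the second at chr2:130295689-130295938 on the plus strand. The second lies inside the annotated span of Ebf4, downstream of the start of its transcript model Ebf4-203.
Ebf3: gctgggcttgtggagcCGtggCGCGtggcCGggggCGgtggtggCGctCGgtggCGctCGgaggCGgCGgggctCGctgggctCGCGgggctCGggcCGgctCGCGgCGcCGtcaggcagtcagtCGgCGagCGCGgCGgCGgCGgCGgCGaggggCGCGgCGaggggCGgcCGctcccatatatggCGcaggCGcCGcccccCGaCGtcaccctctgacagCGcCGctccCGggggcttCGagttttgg
Ebf4: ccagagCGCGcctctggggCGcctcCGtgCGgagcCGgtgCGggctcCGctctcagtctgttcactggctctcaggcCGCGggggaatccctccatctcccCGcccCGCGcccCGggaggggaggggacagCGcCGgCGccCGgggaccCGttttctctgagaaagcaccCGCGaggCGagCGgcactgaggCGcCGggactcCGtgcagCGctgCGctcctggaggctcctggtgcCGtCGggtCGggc

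The window of Ebf3 held 43 CpGs at 80% GC, and that of Ebf4 held 31 at 75.2% GC. For comparison, the median over 32851 RefSeq windows was 6 CpGs and 52.4% GC. Both start regions were therefore CpG-rich, with fewer CpGs in 99.3% of all windows than in that of Ebf3 and in 94.8% than in that of Ebf4. Ebf1 has 2 windows, with 9 and 14 CpGs. Both lie inside its annotated span, and the window with 9 CpGs lies wholly in Ebf1 exons. The EBF palindrome TCCCNNGGGA, searched on both strands, occurred in none of the 4 windows of the members, against 0.779% of all windows.

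Library totals were between 17403893 and 66546052 counts, with a median of 33625908. At this depth a gene at 0.1 CPM (counts scaled to library size, with TMM factors) rests on few reads, which applies to Ebf2 without EZH2i. In bulk RNA, more cells that express a gene and more RNA per cell cannot be told apart, here and in all results that follow. The p-values set differences against the spread between the 3 litters within groups. This spread was estimated over all 4 groups together, with information shared across genes.

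Levels can be compared between genes only per length, for which the TPM of each gene was used. In Ctr, Ebf4 was the highest member with 2.31 ± 0.40 TPM (SD, n = 3), followed by Ebf1 with 0.134 ± 0.0430, Ebf3 with 0.0939 ± 0.0416 and Ebf2 with 0.0157 ± 0.0109. In each Ctr library Ebf4 was the highest and Ebf1 was above Ebf3, although the ranges of these overlapped between libraries, and Ebf2 was the lowest. In EZH2i the order was Ebf4 with 3.24 ± 1.01 TPM, Ebf3 with 2.08 ± 0.729, Ebf1 with 0.483 ± 0.201 and Ebf2 with 0.213 ± 0.0576. In each EZH2i library Ebf4 was above Ebf3 and Ebf3 above Ebf1.

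The summed TPM of the family was 2.56 ± 0.418 in Ctr, 6.01 ± 1.87 in EZH2i, 3.12 ± 0.956 in IFN-γ and 5.03 ± 2.35 in IFN-γ+EZH2i. Ebf4 made up 86.5% to 92.6% of this sum in the Ctr libraries and 51.3% to 56.0% in the EZH2i libraries. The share of Ebf3 was 2.39% to 5.65% in Ctr and 30.4% to 38.1% in EZH2i. With IFN-γ the picture was alike, with Ebf3 at 4.74% to 6.97% without and 32.4% to 39.4% with EZH2i. The shares of a sum are tied to each other, so that a lower share of Ebf4 does not mean a lower level.

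**Figure D1:**
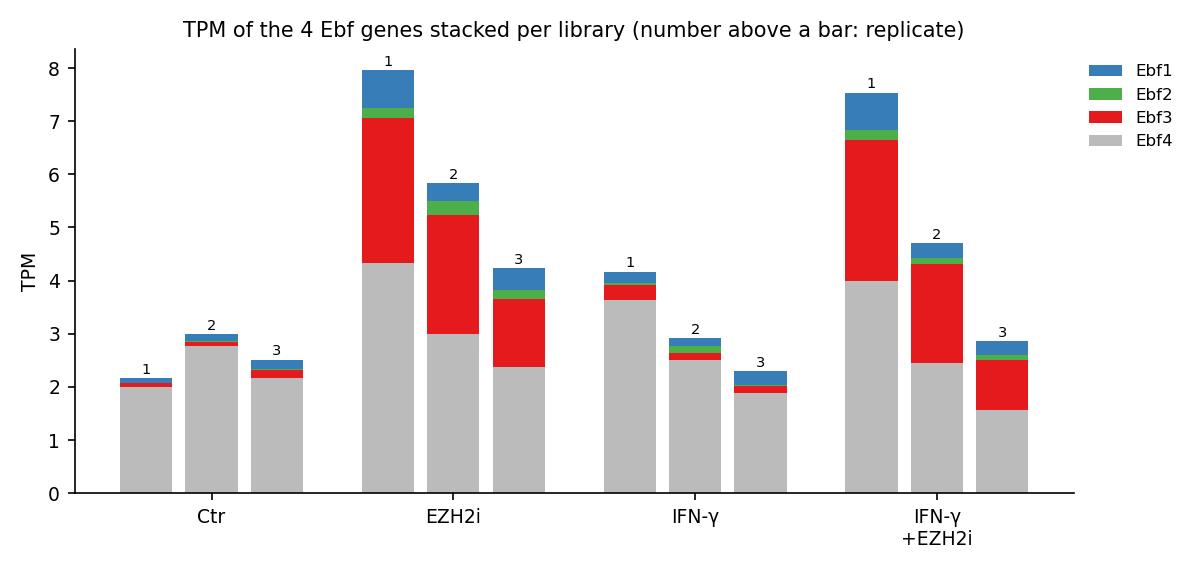
TPM of Ebf1, Ebf2, Ebf3 and Ebf4 (y axis, linear), stacked for each of the 12 libraries by group (x axis), with the replicate number above each bar. Ebf4 fills most of every bar without EZH2i, and Ebf3 adds 30.4% to 39.4% of the bar in the 6 libraries with EZH2i.

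Ebf3 was higher with EZH2i in both settings. Its CPM was 0.567, 0.452 and 0.356 in the Ctr libraries of replicates 1, 2 and 3, and 12.6, 7.56 and 5.15 in the EZH2i libraries. All EZH2i libraries were above all Ctr libraries, and replicate 1 was the highest in each of the 4 groups. The log2 fold change was 4.22 ± 0.53 (SE), with an adjusted p of 0.00616 (edgeR, quasi-likelihood test, Benjamini-Hochberg over 18995 genes). With IFN-γ, CPM was 1.81, 0.639 and 0.710 without and 14.7, 9.36 and 6.26 with EZH2i, again with no overlap. This gave a log2 fold change of 3.29 ± 0.48 (edgeR adjusted p = 0.0185).

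Over both settings, the average EZH2i effect on Ebf3 was 3.75 ± 0.36 on the log2 scale (edgeR adjusted p = 3.14e-04), which ranked 58 from the top among the 18995 genes tested. This result was called whichever of the 12 libraries was left out. The result without IFN-γ had an adjusted p of 0.0539 or 0.0574 when the Ctr library of replicate 2 or 3 was left out. With IFN-γ the call was lost without the IFN-γ library of replicate 2 (adjusted p = 0.117) or 3 (0.101). It was also lost without the IFN-γ+EZH2i library of replicate 1 (0.0503) or 2 (0.0615), and in a fit of only the 6 libraries compared (0.142). The call stood in 15 of 20 fits, the main fit included. DESeq2 gave an adjusted p of 1.75e-09. Adding replicate blocks to the edgeR model gave 3.29 ± 0.19 (adjusted p = 6.41e-06). Deviations of same-number libraries correlated at 0.493 to 0.642 between these groups, although the labels do not tie a number to a litter. The block model also held Ctr, for which such correlations did not all pass 0.1.

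Ebf2 was the lowest member. It had 1, 2 and 6 counts in the Ctr libraries of replicates 1, 2 and 3 and 27, 40 and 57 counts in EZH2i. In CPM these were 0.0355, 0.113 and 0.102 in Ctr and 0.965, 1.10 and 0.865 in EZH2i, so that the groups did not overlap. The ratio of the summed counts, scaled to library size, was 11.1 (95% exact interval 5.65 to 24.8, covering counting error only), from 124 counts against 9. The fitted log2 fold change was 3.48 ± 0.66, and its adjusted p of 0.0487 in edgeR was just under the threshold.

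Leaving out any 1 of 10 libraries moved this adjusted p of Ebf2 above 0.05, up to 0.190 without the Ctr library of replicate 1. Only without the IFN-γ library of replicate 2 or 3 was the call kept among these 12 fits. With all 12 libraries, DESeq2 gave an adjusted p of 4.31e-04. In edgeR it was 0.0198 with no filter, 0.00710 with the replicate number as a block and 0.0724 with length-scaled TPM. With IFN-γ, Ebf2 had 6, 20 and 5 counts without and 21, 21 and 23 counts with EZH2i. The CPM values of 0.201, 0.533 and 0.0771 lay below those of 0.897, 0.638 and 0.571 with EZH2i. Here the difference of 1.40 ± 0.57 on the log2 scale did not pass the test (edgeR adjusted p = 0.654), and it was 2.42 without the IFN-γ library of replicate 2 and 0.89 without that of replicate 3. The average EZH2i effect was 2.44 ± 0.43 (edgeR adjusted p = 0.0127) and was called in all 12 fits that left out 1 library.

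Ebf1 showed a smaller difference. Its CPM was 0.780, 0.734 and 0.679 in Ctr and 3.40, 1.81 and 1.40 in EZH2i, without overlap. The log2 fold change of 1.58 ± 0.42 did not pass the test (edgeR adjusted p = 0.186), while DESeq2 gave an adjusted p of 0.0292. In IFN-γ the values were 1.17, 0.719 and 0.802, and in IFN-γ+EZH2i they were 3.55, 1.64 and 1.71. This difference of 1.35 ± 0.40 had an edgeR adjusted p of 0.324. With the replicate number as a block over all 12 libraries, the edgeR adjusted p was 0.0141. The labels do not say that a number marks the same litter in different groups.

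The average EZH2i effect on Ebf1 was 1.47 ± 0.29 on the log2 scale, a fold of 2.76, and passed the test (edgeR adjusted p = 0.0225). The call was lost when 1 of 5 libraries was left out, namely Ctr replicate 1 (adjusted p = 0.0536), 2 (0.0607) or 3 (0.0632) or IFN-γ replicate 2 (0.0651) or 3 (0.0575). It was also lost with length-scaled TPM in place of counts (0.0668).

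Ebf4 did not pass the test in any comparison. CPM was 10.4, 10.1 and 7.36 in Ctr, 13.7, 9.51 and 7.80 in EZH2i, 13.1, 7.83 and 6.79 in IFN-γ, and 14.4, 8.39 and 6.31 in IFN-γ+EZH2i. All groups overlapped. The average EZH2i effect was 0.11 ± 0.24 on the log2 scale (edgeR adjusted p = 0.919), with a 95% interval of -0.41 to 0.64. This interval lies below that of Ebf1, 0.83 to 2.10, of Ebf2, 1.50 to 3.39, and of Ebf3, 2.97 to 4.53.

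In count terms, 2 of the 4 members were called higher in EZH2i against Ctr, where 0.405% of all tested genes were called higher, and 1 was called in IFN-γ+EZH2i against IFN-γ, where 0.347% were. For the average EZH2i effect 3 of 4 were called, against 2.03% of tested genes. The same 3 members had all 6 libraries with EZH2i above all 6 without, which held for 1.44% of tested genes. In EZH2i against Ctr, 7.37% of tested genes had no overlap in this direction, and in IFN-γ+EZH2i against IFN-γ 6.08% had none.

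**Figure D2:**
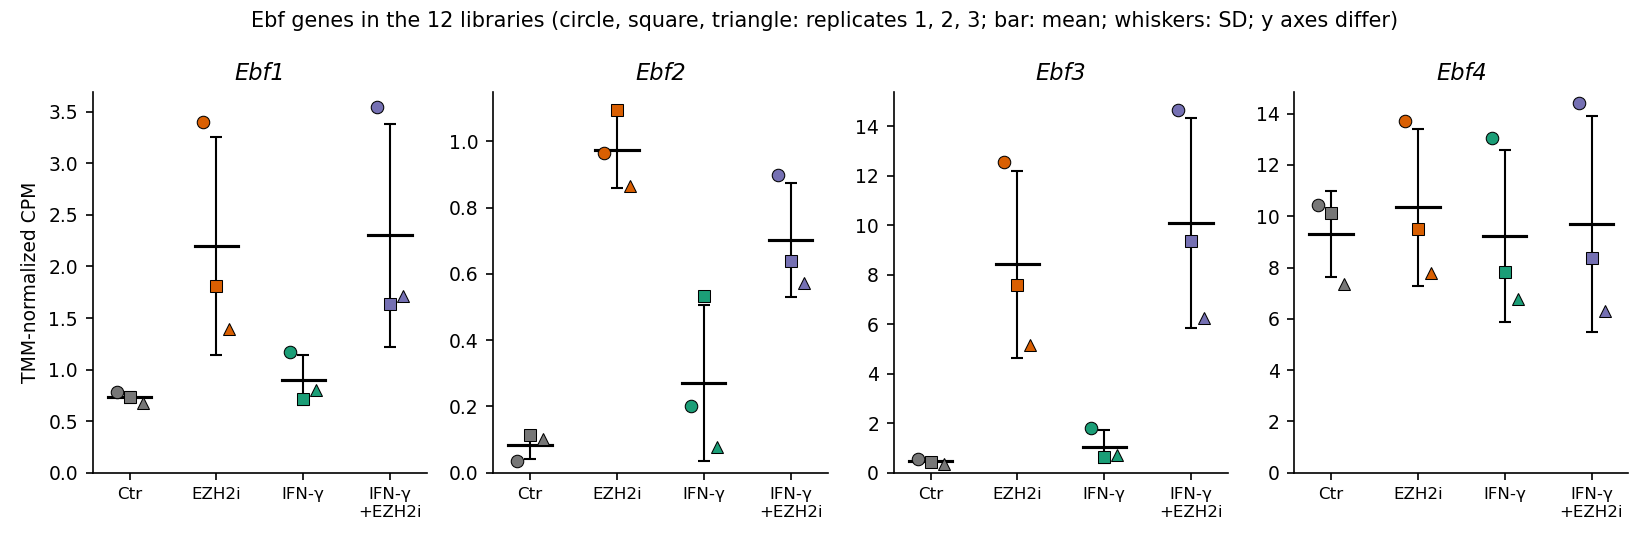
TMM-normalized CPM (y axis, linear, different for each gene) of Ebf1, Ebf2, Ebf3 and Ebf4 in the 4 groups (x axis), with 1 point per library, the mean of 3 as a bar and the SD as whiskers. For Ebf1, Ebf2 and Ebf3 all EZH2i libraries lie above all Ctr libraries, and for Ebf4 the groups overlap.

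No member passed the test for IFN-γ alone in the fit by group, against 8.75% of tested genes called. Ebf3 was 1.19 ± 0.52 higher on the log2 scale in IFN-γ than in Ctr (edgeR adjusted p = 0.239), and its libraries did not overlap, which held in this direction for 13.5% of tested genes. Without the IFN-γ library of replicate 1 the difference was 0.59. With the replicate number as a block, Ebf3 was called (1.11, edgeR adjusted p = 0.00660). That call rests on a pairing with Ctr that the labels do not give. Ebf2 differed by 1.60 ± 0.70 (edgeR adjusted p = 0.234) with overlapping libraries, since the IFN-γ library of replicate 3 lay below 2 of the Ctr libraries. Without that library the adjusted p was 0.0493, and without replicate 2 of IFN-γ the difference was 0.59. Ebf1 differed by 0.29 ± 0.42 (edgeR adjusted p = 0.801) and Ebf4 by -0.01 ± 0.34 (0.994).

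In cells with EZH2i, the IFN-γ differences were 0.26 ± 0.43 for Ebf3, -0.48 ± 0.52 for Ebf2, 0.07 ± 0.39 for Ebf1 and -0.09 ± 0.34 for Ebf4, with edgeR adjusted p-values between 0.783 and 0.974. None passed the test, against 8.07% of tested genes called. These comparisons share libraries with those of EZH2i.

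The interaction, the difference between the EZH2i effects with and without IFN-γ, was -2.08 ± 0.87 for Ebf2, -0.93 ± 0.68 for Ebf3, -0.22 ± 0.57 for Ebf1 and -0.08 ± 0.48 for Ebf4 on the log2 scale. No gene was called by edgeR or DESeq2, while 127 genes had an unadjusted p under 0.05 in edgeR, Ebf2 among them (0.0343, adjusted p = 1). The 95% intervals, not corrected over genes, were wide, from -3.98 to -0.18 for Ebf2 and from -2.40 to 0.55 for Ebf3. The interaction of Ebf2 was -1.07 without the IFN-γ library of replicate 2, and that of Ebf3 was -0.33 without the IFN-γ library of replicate 1 and -0.53 without the EZH2i library of replicate 1.

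**Figure D3:**
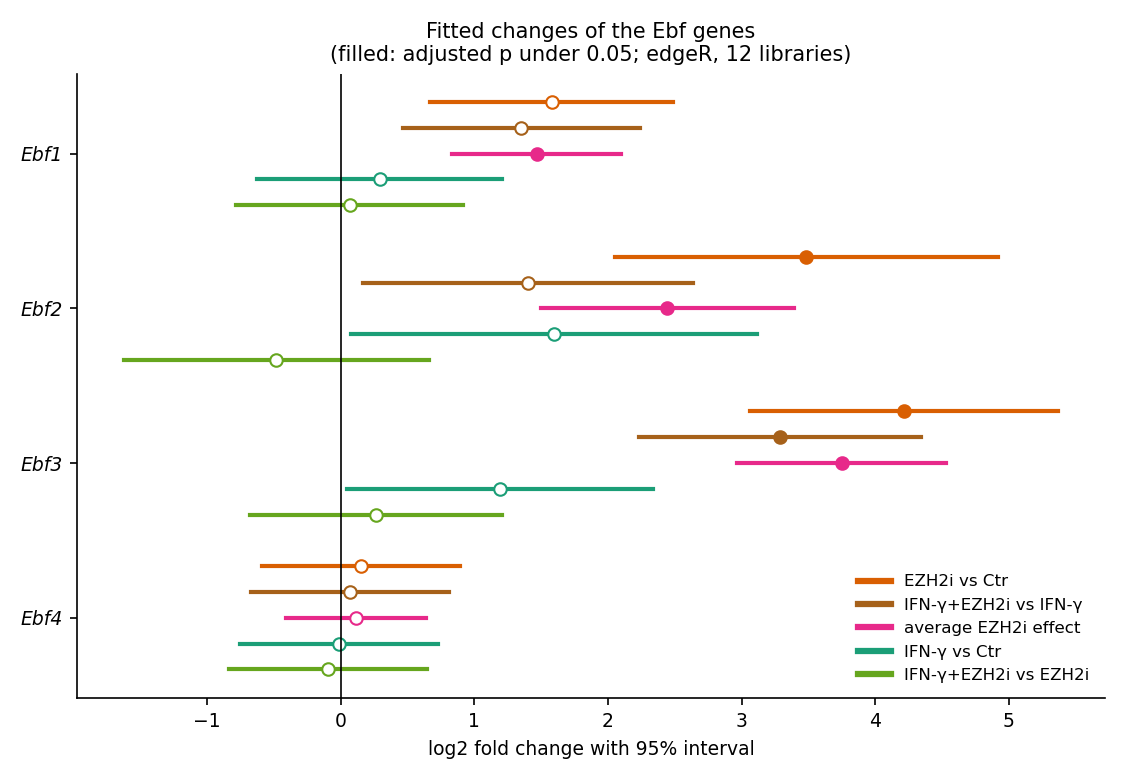
Fitted log2 fold changes (x axis) with 95% intervals for the 4 Ebf genes (y axis) in 5 comparisons given by color, with filled points for an adjusted p under 0.05. Ebf3 is filled in the 3 EZH2i comparisons, Ebf2 in 2 and Ebf1 in the average only, and no interval of Ebf4 excludes 0.

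Transcript models were examined to see which carried these differences. Salmon assigns reads among overlapping models, so that the split within a gene is less certain than its sum. Of the 25 models of the members, 12 passed the filter on low counts. None was called for the average EZH2i effect, against 0.138% of the 58841 transcripts tested that were called higher. At an unadjusted p under 0.05 in edgeR, 8 of the 12 were higher, against 3.44% of those tested. These 8 models split the reads behind the gene results of Ebf1, Ebf2 and Ebf3, so that their number adds no separate evidence. Ebf3-205, 1 of them, passed the filter only through libraries with EZH2i. For the protein-coding model Ebf3-208, the difference was 4.29 ± 0.68 on the log2 scale (edgeR adjusted p = 0.0517).

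Protein-coding models held 26.6% to 93.4% of the TPM of Ebf3 in Ctr, 69.7% to 81.6% in EZH2i, 65.3% to 100% in IFN-γ and 84.8% to 96.2% in IFN-γ+EZH2i. The short model Ebf3-205, which starts inside the gene, was listed at 0 in all 6 libraries without EZH2i and had 10.3, 32.3 and 31.2 estimated counts in EZH2i, and 0, 20.3 and 1.40 in IFN-γ+EZH2i. Of the other Ebf3 models, 2 had no count in any library. Within Ebf2, the retained-intron model Ebf2-204 had between 1 and 4.02 estimated counts in each of the 6 libraries with EZH2i and was at 0 in all 6 without, and it did not pass the filter. The Ebf4 sum was split mainly over the protein-coding models Ebf4-201 and Ebf4-203 and the retained-intron model Ebf4-205. Their mean shares of its TPM were 32.5%, 39.9% and 18.4% in Ctr and 39.8%, 28.5% and 24.5% in EZH2i. This split varied between libraries. In Ctr the share of Ebf4-201 ran from 4.00% to 67.7% and that of Ebf4-203 from 10.8% to 62.1%. In EZH2i they ran from 35.3% to 43.0% and from 20.3% to 36.7%.

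**Figure D4:**
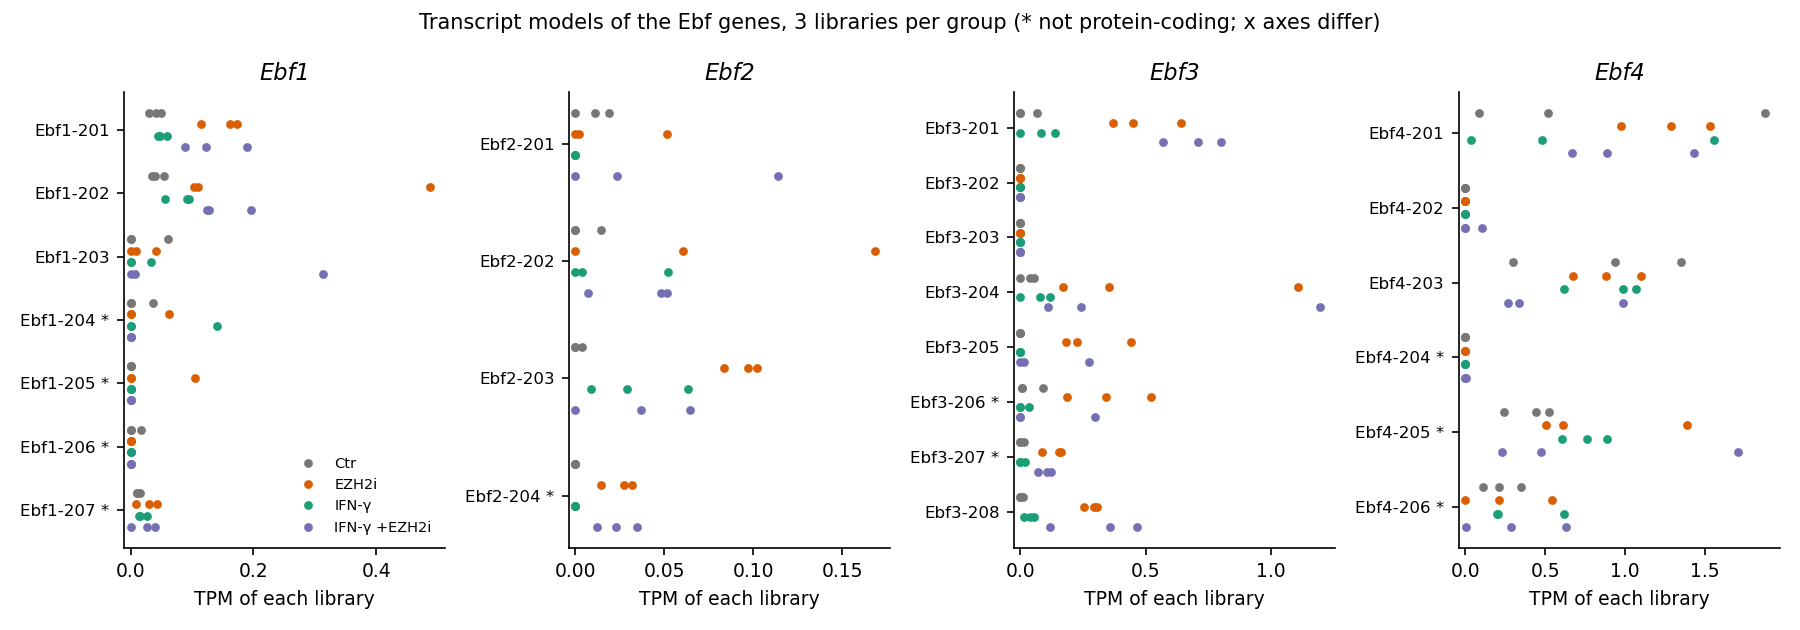
TPM (x axis, linear, different for each gene) of each transcript model of the 4 Ebf genes (y axis), with 1 point per library colored by group and asterisks for models that are not protein-coding. Several Ebf3 models are higher with EZH2i, among them Ebf3-208, while the points of the Ebf4 models overlap between groups.

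The loci around the members were compared next. Of 16 protein-coding neighbors, 2 on each side of each member, all were tested. None was called for the average EZH2i effect, which is near the share of all tested genes, of which 2.03% were called higher. The log2 fold changes of the neighbors lay between -0.39 and 0.51. Around Ebf3 these were Mki67, a proliferation marker, with -0.14 ± 0.18, the DNA repair gene Mgmt with 0.50 ± 0.22, 9430038I01Rik with -0.03 ± 0.15, and the glutaredoxin gene Glrx3 with 0.21 ± 0.10. Ublcp1, Rnf145, Clint1 and Lsm11 flank Ebf1, Bnip3l, Ppp2r2a, Cdca2 and Kctd9 flank Ebf2, and Nop56, Idh3b, Cpxm1 and Gm28372 flank Ebf4.

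Overlapping models numbered 8, and none passed the filter. The antisense models Gm45278 and Gm10578 in Ebf3 had 6 and 1 counts in Ctr and 32 and 25 in EZH2i, summed over 3 libraries. With IFN-γ they had 1 and 1 without and 25 and 15 with EZH2i. Overlap was taken by gene span, and the exons of these models were not compared with those of Ebf3. How strand was used in the counting is not given in the sources used here. Whether reads of Ebf3 and of its antisense models were mixed was not tested. The overlapping models of Ebf1 (Gm12158) and Ebf2 (Gm23178, Gm6878, 1700120O09Rik, 4930438E09Rik and Gm10860) had at most 1 count in any group.

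Genes with the most similar pattern were sought by Pearson's r of log2 CPM over the 12 libraries, among 14681 genes with a mean of at least 1 CPM. For Ebf3 these were Gata6, a zinc finger transcription factor gene (r = 0.990), Adcyap1, which encodes the neuropeptide PACAP (r = 0.985), and Jakmip3 (r = 0.978). Gata6 had 0.0118 CPM in Ctr and 2.20 in EZH2i, 0.154 in IFN-γ and 2.89 in IFN-γ+EZH2i. For Ebf2 they were Trim71 (r = 0.944), Efna5 (0.905) and Trank1 (0.905), and for Ebf1 they were the guidance cue gene Ntn1 (0.973), the T-box gene Tbx2 (0.972) and Garnl3 (0.971). For Ebf4 they were Slc29a4 (0.974), Mmp2 (0.971) and Gdf11 (0.961). The points share the groups, so that these values describe likeness only.

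Genes that work with EBF proteins, or are known to be controlled by them, were listed from textbook knowledge. For the average EZH2i effect 2.03% of all tested genes were called higher, a share to set beside the counts of this and the following lists. Of 17 partners and antagonists, 15 were tested and 2 were called higher for the average EZH2i effect, with a median log2 fold change of 0.01 beside -0.0007 over all tested genes. These were Pax5, a B cell transcription factor gene that EBF1 is known to activate, with 2.25, and Id4, a helix-loop-helix inhibitor gene, with 0.75 (edgeR adjusted p of 0.0314 and 0.00557). The mean CPM of Pax5 was 0.118 in Ctr and 0.600 in EZH2i, with at most 24 counts in a library, so that Pax5, like Ebf2, passed the filter through the libraries in which it was high. The zinc finger antagonist genes Zfp423 and Zfp521 differed by 0.29 and -0.12 and the E protein gene Tcf3 by -0.04, and none of these passed the test (edgeR adjusted p of 0.558, 0.722 and 0.964).

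Of 13 B cell genes with EBF1 sites only Pax5 and Cd79a, a part of the B cell receptor, were tested, and Pax5 was called, the gene already counted above. Cd79a differed by -0.41 (edgeR adjusted p = 0.808), so that the median of 0.92 lies between opposite signs. Among 10 adipocyte genes linked to EBF proteins 6 were tested and none was called (median 0.38), and Cebpa, an adipogenic factor gene, differed by 0.62 (edgeR adjusted p = 0.0541). Of 7 olfactory neuron genes 4 were tested and 1 was called higher, the G protein subunit gene Gnal, by 0.53 (edgeR adjusted p = 0.0490), with a median of 0.15.

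The proneural bHLH genes, which act upstream of EBF genes in several neuronal lineages, had 3 of 11 members tested. Neurod1 was called higher by 3.50 and Neurog2 by 2.04 (edgeR adjusted p of 0.00274 and 0.0211). The mean CPM of Neurod1 was 0.558 in Ctr and 5.16 in EZH2i. The median of the tested genes of this list was 2.04. None of the 12 PRC2 genes was called (median -0.10). Ezh2 itself, whose protein the inhibitor targets, had 49.4 ± 5.21 CPM in Ctr and 39.6 ± 7.66 in EZH2i (SD, n = 3), and its average EZH2i effect was -0.30 (edgeR adjusted p = 0.284).

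**Figure D5:**
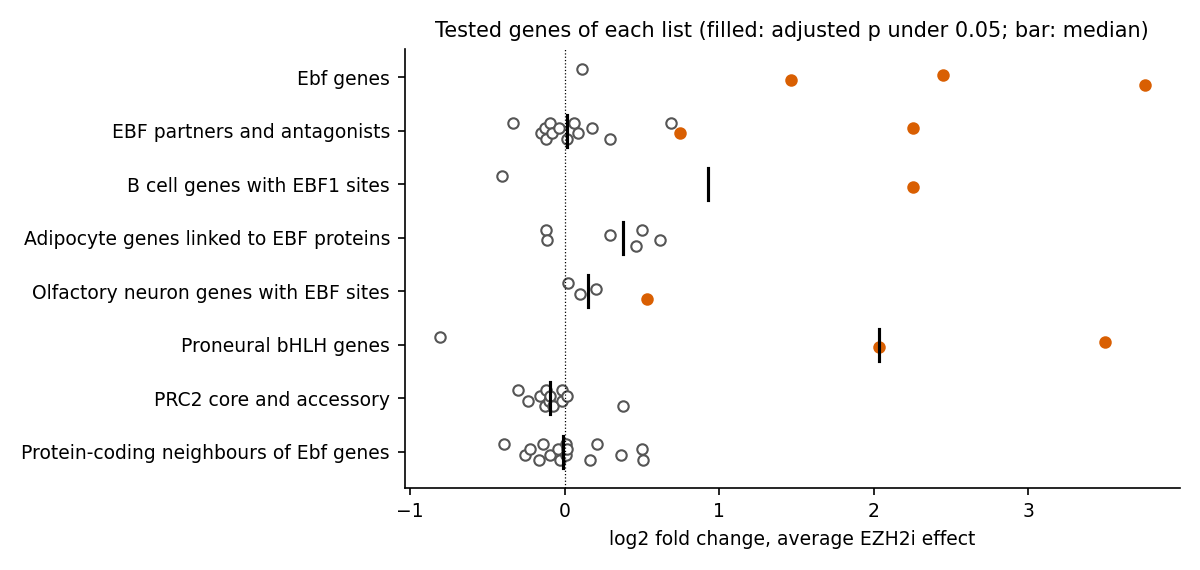
Log2 fold change of the average EZH2i effect (x axis) for each tested gene of the Ebf family, of 6 lists and of the protein-coding neighbors (y axis), filled for an adjusted p under 0.05, with the list median as a bar. The neighbors and PRC2 genes lie near 0, while 3 Ebf genes lie between 1.47 and 3.75.

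Markers of cell types were summed because other cell types also express Ebf genes. All 9 OPC markers, among them Pdgfra and Olig1, were above 1 CPM in every group. Their sums were 9239 to 9444 CPM in Ctr and lower, 7692 to 8491, in EZH2i, without overlap. With IFN-γ they were 5996 to 8194 without and 5056 to 6186 with EZH2i, with overlap. None of the 9 was called for the average EZH2i effect, 2 were above 0, and the median log2 fold change was -0.26. Among all tested genes 2.03% were called higher for this effect, a share to set beside the counts of all marker lists. The 12 pericyte and mural cell markers summed to 35.8 to 47.1 CPM in Ctr and 27.9 to 38.0 in EZH2i, and the 10 markers of vascular leptomeningeal cells to 13.4 to 18.4 and 12.1 to 14.8. Of the pericyte markers 8 of 12 were under 1 CPM in Ctr and 7 in EZH2i, and of the leptomeningeal markers 8 of 10 in each. Some low members of these lists had lower means in Ctr than in EZH2i. Among them were Pdgfrb with 0.104 and 0.394 CPM, Vtn with 0.00565 and 0.153, Rgs5 with 0.907 and 1.44, Col1a2 with 0.211 and 0.596 and Igf2 with 0.0949 and 0.329. Other members had higher means in Ctr, among them Des with 0.26 and 0.13 CPM, Lum with 0.083 and 0.047 and Acta2 with 11.2 and 6.33. Of the tested markers, 2 of 6 for pericytes and 5 of 8 for leptomeningeal cells had a log2 fold change above 0 in EZH2i against Ctr. With IFN-γ the pericyte sum was 40.2 to 49.3 CPM without and 32.3 to 47.0 with EZH2i, and the leptomeningeal sum was 12.3 to 16.9 and 15.2 to 17.2. Kcnj8 was the 1 pericyte marker called higher for the average EZH2i effect, with means of 0.0363 CPM in Ctr, 0.143 in EZH2i, 0.792 in IFN-γ and 3.18 in IFN-γ+EZH2i.

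Endothelial markers summed to 14.2 to 21.5 CPM in Ctr and 25.6 to 40.3 in EZH2i, with Flt1 as the main source. With IFN-γ they summed to 22.1 to 30.9 CPM without and 31.9 to 49.9 with EZH2i. These sums did not overlap in either setting, and no endothelial marker was called for the average EZH2i effect. The 9 neuron markers summed to 104 to 140 CPM in Ctr and 110 to 185 in EZH2i, and 3 were called higher for the average EZH2i effect, namely Stmn2 by 2.45, Snap25 by 1.13 and Syt1 by 0.96. With IFN-γ the neuron sum was 750 to 1378 without and 1016 to 1741 with EZH2i, mostly from Tubb3. The mature oligodendrocyte markers summed to 1927 to 2401 CPM in Ctr and 1134 to 1673 in EZH2i, and to 1786 to 2155 in IFN-γ and 1087 to 1653 in IFN-γ+EZH2i, without overlap in either setting. Of these markers Mbp was called lower, with -0.93, and 1 of the 8 tested was above 0. Astrocyte markers summed to 1510 to 2642 CPM in Ctr and 1910 to 3309 in EZH2i. For the average EZH2i effect, 7 of these 8 markers were above 0. Further, of 8 Schwann cell markers Ngfr was called higher, by 1.10. No astrocyte or microglia marker was called, and the microglia sum stayed between 0.678 and 1.74 CPM. The part of pericytes, astrocytes, leptomeningeal, neuron-like, endothelial, Schwann-like or maturing cells in the Ebf results was not tested.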

How the data were processed

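RNA-seq libraries of 12 samples were made with a stranded total RNA kit. Per the labels, the authors used Salmon 0.8.2, and the deposited estimated counts and TPM values per transcript matched GENCODE M21 on GRCm38 for all 141862 transcripts. The 2 tables deposited by the authors with their DESeq2 comparisons (base mean, log2 fold change, error, statistic and p-values) were not used. For each gene, estimated counts were added up over transcripts and rounded to whole numbers, and TPM values were added up. Tests used edgeR 4.0.16 in R 4.3.3 (TMM, default filter on low counts, 1 quasi-likelihood fit of 12 libraries by group, Benjamini-Hochberg, threshold 0.05). The average EZH2i effect is the mean of both EZH2i contrasts. CPM is TMM-normalized. Library totals varied 3.82-fold. Named genes are the members, their neighbors and overlapping models, the 3 genes most like each member, Ezh2, Zfp423, Zfp521, Tcf3, Pax5, and at most 3 called genes per list and direction. Marker genes and Cebpa fall outside this rule and were picked after seeing their values. A withheld gene is not reported here. The members and lists were chosen with earlier results of these data known. Fits were tested on simulated data. DESeq2 1.42.0 was 1 alternative, and the others were RLE factors, no filter, a minimum of 10 counts in all samples, a replicate block, length-scaled TPM, mitochondrial and rRNA genes left out, the 6 libraries compared, and each library left out.

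Deviations from group means of libraries with the same replicate number correlated at 0.493 to 0.642 between IFN-γ and IFN-γ+EZH2i and at 0.496 to 0.621 between EZH2i and IFN-γ+EZH2i, but as low as 0.0467 between Ctr and EZH2i and 0.0854 between Ctr and IFN-γ. All same-number correlations passed 0.1 only where Ctr was not involved. The fit by group held no replicate block in any comparison. The block was an alternative fit of all 12 libraries, Ctr included.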

Additional observations from a re-analysis of the deposited data

How the results depend on the processing

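The calls of Ebf2 and Ebf3 for the average EZH2i effect held in all 18 alternatives that could test them. A minimum of 10 counts in every sample removed Ebf2 and Ebf3, so that setting gave no value for them, and Ebf2 was not tested against Ctr in the 6 libraries of IFN-γ and Ctr. The number of genes called was 77 for EZH2i against Ctr, 67 for IFN-γ+EZH2i against IFN-γ and 422 for the average. It became 308, 263 and 840 with DESeq2, 29, 11 and 238 with at least 10 counts in every sample, and 50, 30 and 280 with length-scaled TPM. It was 121 for EZH2i against Ctr with no filter, and 33 and 7 for the first 2 in fits of only the 6 libraries. The transcripts called for the average numbered 84, and 52 with no filter. The cause of these differences was not tested beyond the smaller number of libraries or genes.

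With the replicate block the counts were 771 for EZH2i against Ctr, 748 for IFN-γ+EZH2i against IFN-γ, 4033 for IFN-γ against Ctr (1663 without it), 3662 for IFN-γ+EZH2i against EZH2i (1533 without it), 2317 for the average and 349 for transcripts. Of the members, the block turned Ebf1 into a call in EZH2i against Ctr (1.49, adjusted p = 0.00818) and in IFN-γ+EZH2i against IFN-γ (1.29), and Ebf3 in IFN-γ against Ctr (1.11, adjusted p = 0.00660), all by edgeR. Among transcripts it added Ebf1-201 (1.52, adjusted p = 0.0341) and Ebf3-208 (4.33, adjusted p = 0.0221). It changed no other call of a member. The labels do not say that a number marks the same litter in different groups, and the correlations with Ctr did not all pass 0.1.

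In EZH2i against Ctr, Ebf1 had 1.58 and a call with DESeq2, and Ebf2 lost its call with length-scaled TPM (3.46, edgeR adjusted p = 0.0724). In the 6 libraries alone Ebf3 had 3.28 with IFN-γ, without a call. Length-scaled TPM gave 1.31 for the average effect on Ebf1, without a call, and -0.0426 for Ebf1 and -0.00853 for Ebf3 in IFN-γ+EZH2i against EZH2i, with the sign turned. Ebf4 had 0.00926 in IFN-γ against Ctr with no filter, also turned, and its ratio of IFN-γ+EZH2i to IFN-γ was 1.05 in CPM and 0.999 in TPM.

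When each library was left out in turn, the counts ranged from 11 (without Ctr replicate 3) to 83 for EZH2i against Ctr, from 10 (without IFN-γ replicate 2) to 65 for IFN-γ+EZH2i against IFN-γ, and from 245 to 415 for the average. Without IFN-γ the EZH2i difference ranged from 3.18 to 3.79 for Ebf2, from 3.81 to 4.47 for Ebf3 and from -0.10 to 0.32 for Ebf4. With IFN-γ it ranged from 0.89 to 2.42 for Ebf2, from 2.91 to 3.89 for Ebf3 and from -0.33 to 0.40 for Ebf4. The average ranged from 1.24 to 1.59 for Ebf1 and from -0.0893 to 0.28 for Ebf4. For IFN-γ against Ctr the range was 0.59 to 2.11 for Ebf2 and -0.34 to 0.17 for Ebf4. In IFN-γ+EZH2i against EZH2i it was -0.39 to 0.52 for Ebf1, -0.12 to 0.67 for Ebf3 and -0.51 to 0.16 for Ebf4. The interaction ranged from -0.67 to 0.22 for Ebf1, from -2.59 to -1.07 for Ebf2, from -1.30 to -0.33 for Ebf3 and from -0.48 to 0.25 for Ebf4. The signs that turned belong to differences that no fit called.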
